A study of Rattus norvegicus with 4 samples.

Results

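The genes described here encode enzymes that build, remodel and break down glycerolipids and phospholipids, together with proteins of the lipid droplet, in cultured rat tendon stem/progenitor cells (TSPCs). Members were chosen by symbol: all genes whose names begin as those of the AGPAT, GPAT, LPIN, LPCAT, DGAT, DGK, PLIN, PLA2G, PLCB, PLCD, PLCG, PLCE, PLD, PLPP, PNPLA, PCYT and MBOAT families, plus a short set of single genes such as Lpl, Mgll, Chka and Chkb, with Pla2g15 left out. Of 7235 named genes on the arrays, 56 matched. Among the 56 were 5 Gpatch genes, which encode RNA-associated G-patch proteins and share only the letters of the GPAT family. The 51 that remained are called lipid genes, and every count of lipid genes below refers to these 51. They include Pld3 and Pld4, known as lysosomal exonucleases, and the phosphatase-related Plppr5, all counted by family name. Other genes of the families, among them Plin1, Cidec, Lipe, Gpd1, Pemt and Pisd, were not analysed here.

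Total RNA was profiled on 4 Affymetrix rat arrays. The POG arrays (POG replicates 1 and 2) held TSPCs of 18-month-old rats given 20 μM prim-O-glucosylcimifugin (POG), a chromone glucoside, and the DMSO arrays (DMSO replicates 1 and 2) held TSPCs of rats of that age given an equal amount of the solvent dimethyl sulfoxide. Per the methods, TSPCs came from the Achilles tendon and treatment was renewed every other day for a week. The labels name passage 12 for all 4 arrays, and how this relates to the week of treatment is unsettled. The titles of the DMSO arrays name both treatments, so groups follow the treatment entries and the column names, all directions are as labelled, and exchanged labels would turn every sign. The labels call the arrays biological replicates without saying that each came from a different rat, and p-values therefore measure only the spread between these arrays.

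Values are log2 signals from robust multichip analysis (RMA), and a log2 fold change is the mean of the POG arrays minus that of the DMSO arrays. Array medians were 8.55 and 8.59 for POG and 8.57 and 8.68 for DMSO, and arrays correlated across features at 0.994 within POG, 0.995 within DMSO and 0.962 to 0.965 between the groups. Markers of the cells were measured beside the lipid genes. The mesenchymal marker Thy1 (CD90) read 16.56 and 16.32 on the POG arrays and 16.26 and 16.03 on the DMSO arrays. The tendon transcription factor Scx read 5.86 and 5.48 on the POG arrays and 5.93 and 6.09 on the DMSO arrays. Of 10 measured mesenchymal and tendon markers, Dcn, Nt5e and Eng (3) were higher in POG, Tnc and Cd44 (2) were lower, and 5, Thy1 and Scx among them, missed the threshold. That was 30.0% higher and 20.0% lower, beside 20.4% and 17.2% of all genes. All 21 measured genes of cell division were lower in POG, with a median log2 fold change of -3.35 and mean signals of 8.45 and 8.75 on the POG arrays, against 11.94 and 11.85 on the DMSO arrays. Their part in the lipid results was not tested. The paper reports increased Ki67 protein, by staining, in aged TSPCs given POG. Here the RNA of its gene Mki67, among the 21, read 10.97 and 10.91 on the POG arrays and 15.11 and 15.04 on the DMSO arrays. The direction is opposite to that of the protein, and whether labels were exchanged was not tested. Eng passed in none of the fits that left out an array (adjusted p from 0.0663 to 0.19), and Cd44 only in that without DMSO replicate 2 (otherwise up to 0.0816).

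Glycerolipids are made by adding fatty acids to glycerol-3-phosphate, first by the glycerol-3-phosphate acyltransferases (GPAT) and then by the AGPAT enzymes, which gives phosphatidate. Lipins remove its phosphate to form diacylglycerol, from which cells make either triglyceride, stored in droplets, or the phospholipids of their membranes. Lipases and phospholipases take these lipids apart, and several of the products, diacylglycerol, phosphatidate and lysophosphatidate among them, are signals in their own right. Genes of sterol and fatty acid synthesis are known to be controlled by SREBP factors, which often act beside the CCAAT-binding factor NF-Y.

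For 42 of the 51 genes a promoter window was matched by gene ID in RefSeq (build GRCr8), from 250 bases before to 50 bases after the start. Both strands were searched for CCAAT, the NF-Y box. It lay in the windows of 16 of the 42 genes, where 39.6% of all 27457 genes with windows held it. By call, 8 of 16 genes higher in POG, 1 of 4 lower genes (Mboat1) and 7 of 22 genes that did not pass held it. A sterol regulatory element core, TCACNCCAC, was found in 2 of the 42 (Plcd4 and Pld4; 1.25% of all genes), and the lysosomal CLEAR core, GTCACGTGA, in 0 of 42 (0.725% of all genes). These matches are descriptions of letters, not of bound sites. The 150 bases before the start are shown for all 5 measured lysophospholipid acyltransferases of the LPCAT and MBOAT families, which held calls in both directions. Diacylglycerol kinases and phospholipases D also held calls in both directions, and their called genes had no CCAAT in the window. Capitals mark CCAAT on either strand. In the order printed, the stretches lie at chr4:159154540-159154689 (plus strand), chr19:30325577-30325726 (minus strand), chr17:34653699-34653848 (minus strand), chr1:31644947-31645096 (minus strand) and chr1:74440468-74440617 (plus strand).
Lpcat3: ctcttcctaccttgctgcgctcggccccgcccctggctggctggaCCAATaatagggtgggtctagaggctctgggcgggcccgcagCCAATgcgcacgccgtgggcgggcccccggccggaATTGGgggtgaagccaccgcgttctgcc
Lpcat2: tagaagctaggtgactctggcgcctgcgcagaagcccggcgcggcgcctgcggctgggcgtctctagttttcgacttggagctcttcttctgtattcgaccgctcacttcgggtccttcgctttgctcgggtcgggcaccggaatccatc
Mboat1: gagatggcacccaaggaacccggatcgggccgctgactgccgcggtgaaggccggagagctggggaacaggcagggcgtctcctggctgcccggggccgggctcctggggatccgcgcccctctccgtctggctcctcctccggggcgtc
Lpcat1: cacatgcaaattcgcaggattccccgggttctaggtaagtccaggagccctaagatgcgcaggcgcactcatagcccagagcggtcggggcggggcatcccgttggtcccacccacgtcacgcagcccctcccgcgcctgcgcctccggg
Mboat7: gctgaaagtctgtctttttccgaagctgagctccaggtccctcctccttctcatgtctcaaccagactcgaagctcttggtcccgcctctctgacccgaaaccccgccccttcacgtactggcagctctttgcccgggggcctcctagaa
In Lpcat3, higher in POG, the boxes began 105, 63 and 28 bases before the start. Mboat1, lower in POG, had its 1 box 12 bases after the start, outside the stretch shown. Lpcat2 (higher), Lpcat1 (lower) and Mboat7 (not past the threshold) had none in the window. The start is that of the matched window and can lie inside the gene. Lpcat2 is annotated up to chr19:30325715 and Mboat1 up to chr17:34653705, both inside their stretches. Most of the stretch shown for Lpcat2 therefore lies within the annotated gene.

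More of the lipid genes were higher than lower in POG. By limma at an adjusted p under 0.05, 18 of 51 (35.3%) were higher, where 20.4% of all named genes were, and 5 (9.8%) were lower, where 17.2% of all were. In either direction 23 of 51 passed, beside 37.6% of all genes. The median log2 fold change was 0.22 over the 51 and 0.04 over all genes. In 27 genes both POG arrays lay above both DMSO arrays (37.2% of all genes did so), in 11 both lay below (32.7% of all genes), and in 13 the groups overlapped. All 23 genes that passed lay apart, and 8 higher genes and 1 lower gene differed by over 2-fold. The share of all genes that did so was not counted, and 35.2% of all genes differed by over 1.5-fold. Among the dimmest 25% of genes lay 14 of the 51, of which 3 were higher and 1 lower (13.9% and 12.1% of all genes that dim), against 15 higher and 4 lower of the other 37 (22.5% and 19.0% of all brighter genes). In 5 of the 51 a group mean was near background, taken as under 4.12, the 5th percentile of all features. The largest SD within a group was 0.509 and the median 0.144.

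Each fit without an array left a group with a single array, and fewer genes then passed, both among the lipid genes and over all genes. Of the 23 genes, 7 (Lpl, Lpin1, Plpp6, Pla2g7, Lpcat3, Pld1 and Mboat1) passed whichever of the 4 arrays was left out, 7 passed in some of these fits and 9 in none, though the direction of all 23 stayed the same throughout. The number higher was 10 without POG replicate 1, 8 without POG replicate 2, 7 without DMSO replicate 1 and 8 without DMSO replicate 2, and the number lower was 2, 2, 1 and 2. With 2 arrays against 2 an exact permutation test of a single gene cannot give a two-sided p under 0.333. RNA was taken from whole cultures, so a change in the cells present and a change in RNA per cell cannot be told apart.

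**Figure D1:**
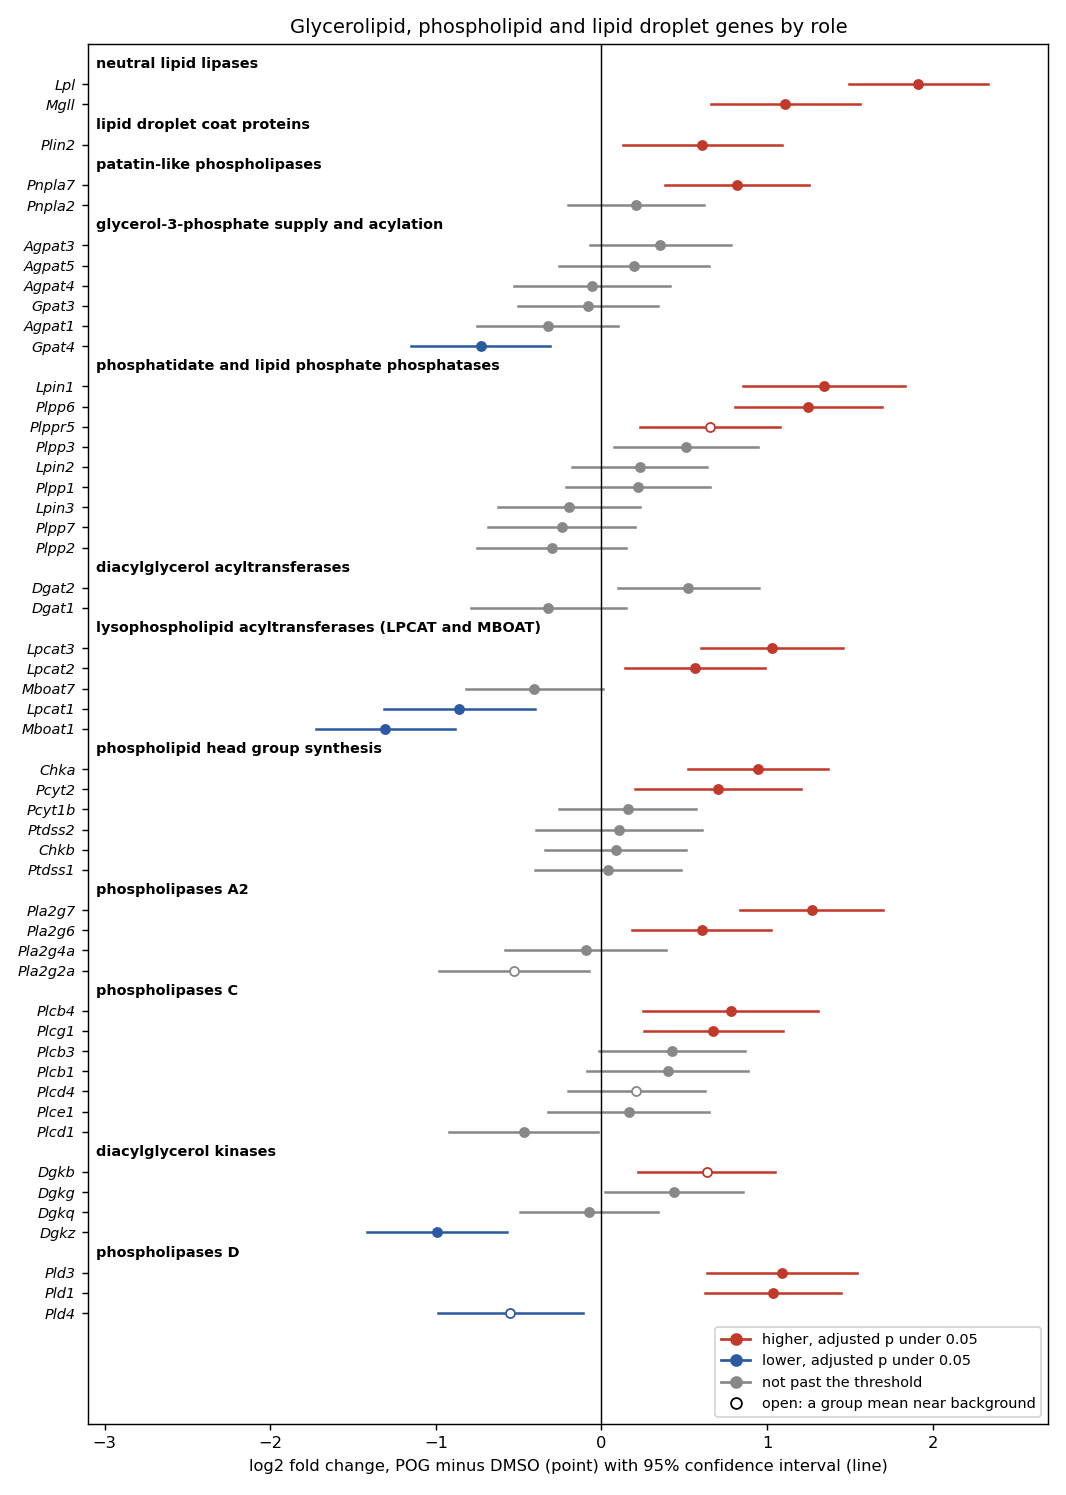
Log2 fold change, POG minus DMSO (x axis, points; lines are 95% confidence intervals), for the 51 lipid genes (y axis), grouped by role; colours mark genes past an adjusted p of 0.05 and open points those with a group mean near background. The 18 higher genes lie in 10 of the 12 roles, and Lpl has the largest increase and Mboat1 the largest decrease.

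Of 3 measured lipases of neutral lipid, Lpl and Mgll were higher, beside 20.4% of all genes, and Pnpla2 did not pass. The increase of Lpl was the largest of the 51 genes. Lpl, the secreted lipase that frees fatty acids from circulating triglyceride, read 8.47 and 8.40 on the POG arrays and 6.43 and 6.61 on the DMSO arrays. Both POG arrays stood well above both DMSO arrays, and the log2 fold change was 1.92 (SE 0.195, 95% confidence interval 1.498 to 2.332, adjusted p = 3.1e-06), or 3.77-fold. Mgll, monoacylglycerol lipase, which completes triglyceride breakdown and degrades the endocannabinoid 2-arachidonoylglycerol, read 8.79 and 8.42 in POG against 7.36 and 7.63 in DMSO, again apart, and was 1.11 higher on the log2 scale (SE 0.21, adjusted p = 9.0e-04). It lost its call without POG replicate 1 (adjusted p = 0.0544) or DMSO replicate 1 (0.0573). Pnpla2, the adipose triglyceride lipase that opens triglyceride breakdown, did not pass. It read 10.00 and 10.10 in POG and 9.82 and 9.86 in DMSO, with a log2 fold change of 0.21 and a confidence interval of -0.202 to 0.622 (adjusted p = 0.413).

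Plin2, perilipin 2, which coats droplets in most cell types, read 7.33 and 7.94 on the POG arrays and 6.95 and 7.10 on the DMSO arrays. The groups lay apart, but the POG arrays differed from each other by about as much as the group means did, and the log2 fold change of 0.61 (SE 0.225) had an adjusted p of 0.0453, close to the threshold. The call was lost without POG replicate 2 (adjusted p = 0.317, log2 fold change 0.31), DMSO replicate 1 (0.282) or DMSO replicate 2 (0.18). Pnpla7, a lysophospholipase of the patatin-like family, read 6.47 and 6.81 in POG and 5.74 and 5.90 in DMSO. Its increase of 0.82 on the log2 scale (SE 0.204, adjusted p = 0.00609) also passed without POG replicate 1, but not without POG replicate 2 (0.0914), DMSO replicate 1 (0.104) or DMSO replicate 2 (0.0621).

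**Figure D2:**
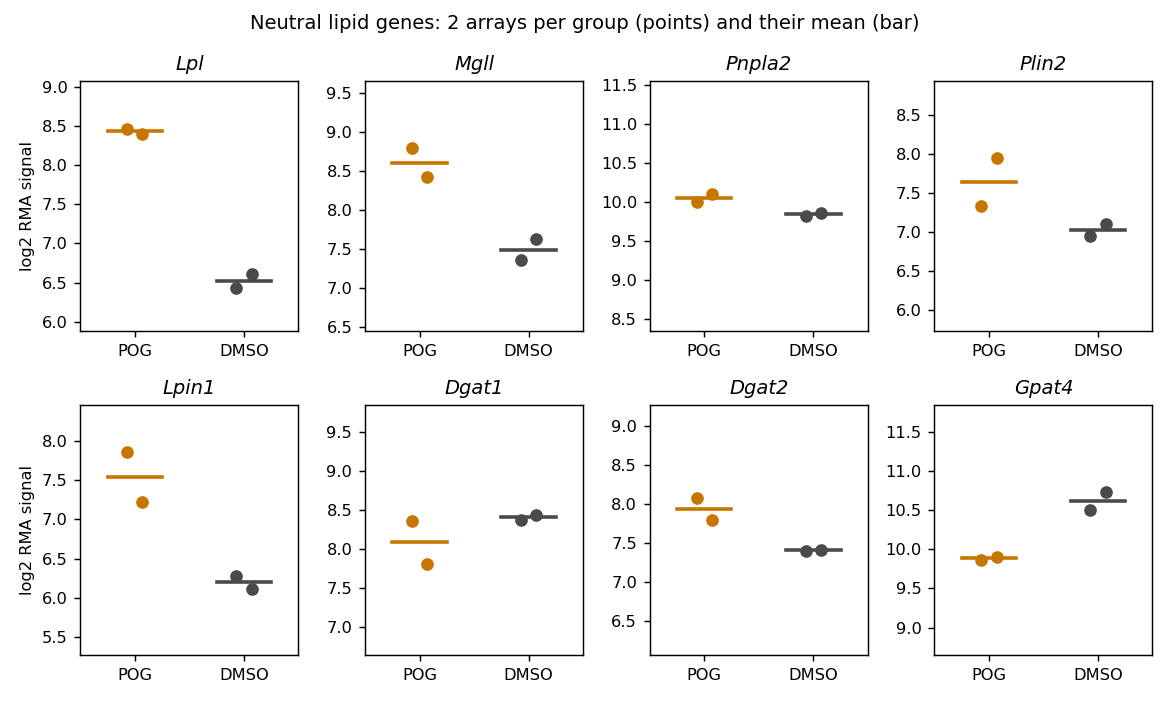
Log2 RMA signal (y axis, each panel spanning the same range around its own mean) of 8 genes of neutral lipid metabolism on the POG and DMSO arrays (x axis); points are arrays and bars the group means. Lpl, Mgll, Plin2 and Lpin1 were higher in POG, Gpat4 was lower, and Pnpla2, Dgat1 and Dgat2 did not pass.

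Of 6 measured genes of the acylation steps at the head of the pathway, 1 passed, and it was lower. That was 16.7% lower and 0% higher, beside 17.2% and 20.4% of all genes. Gpat4, a GPAT of the endoplasmic reticulum that leads toward triglyceride, read 9.87 and 9.90 on the POG arrays and 10.50 and 10.73 on the DMSO arrays. The 2 POG arrays were nearly equal and below both DMSO arrays, and the log2 fold change was -0.73 (SE 0.196, adjusted p = 0.00968). The call was lost whichever array was left out, with adjusted p between 0.0566 and 0.113. Gpat3, its close relative, read 5.80 and 6.05 in POG and 5.99 and 6.02 in DMSO and overlapped. The measured AGPAT genes, which acylate lysophosphatidate, did not pass: log2 fold changes were 0.36 for Agpat3, 0.20 for Agpat5, -0.06 for Agpat4 and -0.33 for Agpat1.

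At the step from phosphatidate to diacylglycerol, Lpin1 passed and the other lipins did not. Lpin1, a phosphatidate phosphatase that also acts as a transcriptional coactivator, read 7.86 and 7.22 on the POG arrays and 6.28 and 6.11 on the DMSO arrays. Both POG arrays were higher, POG replicate 1 by more, and the log2 fold change was 1.34 (SE 0.228, adjusted p = 3.7e-04), or 2.54-fold. Lpin2, of the same family, read 7.81 and 7.82 in POG against 7.57 and 7.60 in DMSO, a difference of 0.23 that did not pass (adjusted p = 0.365). Lpin3, the remaining lipin, differed by -0.20 (adjusted p = 0.464), its nearest arrays almost touching. Whether Lpin1 differed from Lpin2 and Lpin3 in its change was not tested.

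Among the lipid phosphate phosphatases, Plpp6, which acts on isoprenoid diphosphates such as presqualene diphosphate, read 10.59 and 10.99 on the POG arrays and 9.47 and 9.61 on the DMSO arrays. The groups were far apart, with a log2 fold change of 1.25 (SE 0.207, adjusted p = 3.0e-04). Plpp3, a cell surface phosphatase of lysophosphatidate and sphingosine 1-phosphate, read 9.30 and 9.61 in POG and 8.86 and 9.03 in DMSO and missed the threshold (adjusted p = 0.0606). Plpp1 and Plpp2, of the same enzyme family, had log2 fold changes of 0.22 and -0.30 with overlapping groups, as did Plpp7 (-0.24). Plppr5, a phosphatase-related membrane protein, passed as higher (adjusted p = 0.0188) on signals close to background, 4.02 and 3.75 in POG and 3.18 and 3.28 in DMSO, so no size is given, and it passed in none of the fits that left out an array (adjusted p from 0.06 to 0.145).

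Neither measured gene of the last step of triglyceride synthesis passed. Dgat2, a diacylglycerol acyltransferase associated with droplets, read 8.07 and 7.79 on the POG arrays and 7.40 and 7.41 on the DMSO arrays. The groups lay apart and the log2 fold change of 0.52 (confidence interval 0.1 to 0.95) had an adjusted p of 0.0502, just outside the threshold. It passed after quantile normalization of the arrays (0.0454), after median subtraction (0.0363), without the dimmest 25% of genes (0.0413) and with the replicate block (0.043), but in none of the fits without an array. Dgat1, an acyltransferase of the endoplasmic reticulum, read 8.36 and 7.81 in POG and 8.37 and 8.44 in DMSO, and its difference of -0.32 (adjusted p = 0.266) came mostly from POG replicate 2.

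Of 5 measured enzymes that re-acylate lysophospholipids, Lpcat3 and Lpcat2 (2) were higher, Mboat1 and Lpcat1 (2) were lower and Mboat7 (1) missed the threshold, beside 20.4% of all genes higher and 17.2% lower. Without single arrays 1 was higher and 1 or 2 were lower. Lpcat3, which places polyunsaturated fatty acids into phosphatidylcholine, read 13.17 and 12.89 on the POG arrays and 12.05 and 11.95 on the DMSO arrays. It was higher on both POG arrays, by a log2 fold change of 1.03 (SE 0.199, adjusted p = 0.00108). Lpcat2, which also makes platelet-activating factor, read 8.77 and 9.03 in POG against 8.29 and 8.38 in DMSO, a log2 fold change of 0.56 (adjusted p = 0.0367) that passed in none of the fits without an array (0.0718 to 0.192).

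In the other direction, Mboat1, an acyltransferase of lysophosphatidylethanolamine and lysophosphatidylserine, read 8.39 and 8.38 on the POG arrays and 9.58 and 9.80 on the DMSO arrays. It had the largest decrease of the 51 genes, a log2 fold change of -1.31 (SE 0.196, confidence interval -1.724 to -0.886, adjusted p = 1.3e-04), or 2.47-fold lower. Lpcat1, known for making the saturated phosphatidylcholine of lung surfactant, read 8.51 and 9.01 in POG and 9.60 and 9.64 in DMSO. Its decrease of -0.86 on the log2 scale (SE 0.213, adjusted p = 0.00600) passed without POG replicate 2 but not without POG replicate 1 (0.0896), DMSO replicate 1 (0.0926) or DMSO replicate 2 (0.0972). Mboat7, which adds arachidonate to lysophosphatidylinositol, read 9.58 and 9.48 in POG and 9.99 and 9.88 in DMSO, apart and lower but not past the threshold (adjusted p = 0.113).

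Phospholipid head groups are added by the choline and ethanolamine branches of the Kennedy pathway. Chka, choline kinase alpha, which opens the choline branch, read 7.11 and 7.27 on the POG arrays and 6.13 and 6.36 on the DMSO arrays. The groups lay well apart, with a log2 fold change of 0.94 (SE 0.198, adjusted p = 0.00197), though the call was lost without POG replicate 2 (0.06) or DMSO replicate 1 (0.0638). Pcyt2, which makes CDP-ethanolamine, read 8.15 and 7.56 in POG and 6.94 and 7.36 in DMSO. The lower POG array and the higher DMSO array were close, and the log2 fold change of 0.70 (SE 0.235, adjusted p = 0.0291) passed in none of the fits without an array (0.0651 to 0.308). The other choline kinase Chkb, the phosphocholine-activating enzyme Pcyt1b and the phosphatidylserine synthases Ptdss1 and Ptdss2 had log2 fold changes from 0.04 to 0.16, none past the threshold.

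**Figure D3:**
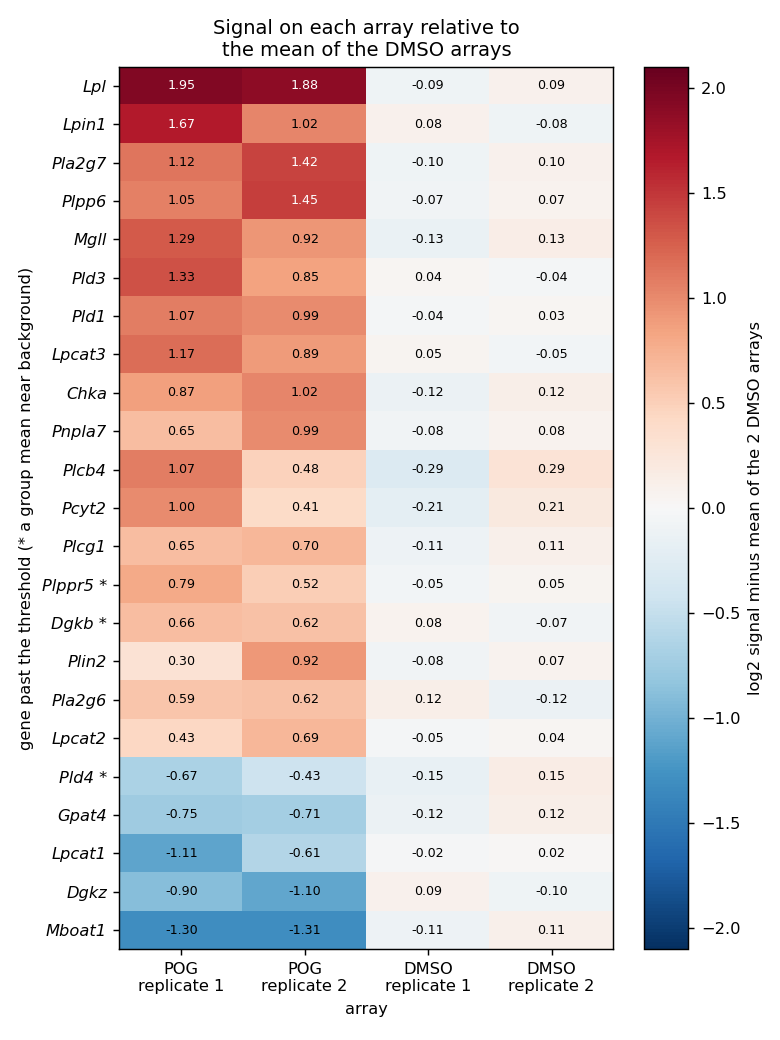
Log2 signal of the 23 lipid genes past the threshold (y axis, by log2 fold change) on each array (x axis) minus the mean of the 2 DMSO arrays; red is above and blue below that mean, and an asterisk marks a group mean near background. Because the groups lay apart in all 23 genes, both POG arrays necessarily lie on the same side of the DMSO mean. The POG arrays differ most from each other in Lpin1, Plin2, Plcb4 and Pcyt2.

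Phospholipases A2 free a fatty acid from the middle position of a phospholipid. Pla2g7, the secreted lipoprotein-associated enzyme that inactivates platelet-activating factor, read 12.01 and 12.30 on the POG arrays and 10.79 and 10.98 on the DMSO arrays. It was 2.41-fold higher in POG (log2 fold change 1.27, SE 0.202, adjusted p = 2.2e-04), with no overlap. Pla2g6, a calcium-independent enzyme, read 6.99 and 7.02 in POG and 6.52 and 6.28 in DMSO, apart, and its increase of 0.60 on the log2 scale (adjusted p = 0.0260) passed in none of the fits without an array (0.0816 to 0.183). Pla2g4a, the cytosolic enzyme that releases arachidonate, overlapped at 10.17 and 10.39 in POG and 10.07 and 10.68 in DMSO, and its interval ran from -0.58 to 0.39. Pla2g2a, a secreted enzyme, was near background at 3.36 and 3.48 in POG and 3.72 and 4.18 in DMSO and did not pass (adjusted p = 0.0613).

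Phospholipases C cut phosphatidylinositol bisphosphate into diacylglycerol and the calcium-releasing messenger IP3. Plcg1, the form activated by growth factor receptors, read 10.77 and 10.82 on the POG arrays and 10.01 and 10.23 on the DMSO arrays, with a log2 fold change of 0.68 (SE 0.196, adjusted p = 0.0149). The POG arrays were nearly equal and above both DMSO arrays. Plcb4, a form driven by Gq proteins, read 11.45 and 10.86 in POG and 10.09 and 10.66 in DMSO, so that the nearest arrays of the groups were close, and its log2 fold change was 0.78 (SE 0.245, adjusted p = 0.0224). Neither call held when an array was left out: adjusted p ran from 0.0637 to 0.142 for Plcg1 and from 0.0655 to 0.308 for Plcb4. Plcb3, Plcb1, Plce1 and Plcd1 did not pass, with log2 fold changes of 0.42, 0.40, 0.16 and -0.47, and Plcd4 was near background at 3.47 and 3.37 in POG and 3.27 and 3.15 in DMSO.

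Diacylglycerol kinases turn diacylglycerol back into phosphatidate. Dgkz, a form known for limiting diacylglycerol signals in mouse lymphocytes, read 7.19 and 6.99 on the POG arrays and 8.18 and 7.99 on the DMSO arrays. It was lower on both POG arrays, by a log2 fold change of -0.99 (SE 0.198, adjusted p = 0.00134), though not past the threshold without POG replicate 2 (0.0523) or DMSO replicate 1 (0.0541). Dgkb, a form best known from brain, passed as higher (adjusted p = 0.0192) at 4.70 and 4.66 in POG against 4.12 and 3.97 in DMSO, where the DMSO mean was near background, and passed in none of the fits without an array (0.0853 to 0.139). Neither Dgkg nor Dgkq of the same family passed, at 0.44 (adjusted p = 0.0886) and -0.08 (adjusted p = 0.787) on the log2 scale.

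All 3 measured genes named phospholipase D passed, 2 higher and 1 lower, beside 20.4% higher and 17.2% lower of all genes. Only Pld1 encodes an enzyme known to make phosphatidate from phosphatidylcholine. Pld1 read 10.83 and 10.75 on the POG arrays and 9.72 and 9.79 on the DMSO arrays, tight within groups and apart between them, with a log2 fold change of 1.03 (SE 0.192, adjusted p = 7.9e-04). Pld3 and Pld4 carry the family name but are known as lysosomal exonucleases of single-stranded nucleic acids. Pld3 read 12.71 and 12.23 in POG and 11.42 and 11.34 in DMSO, a log2 fold change of 1.09 (SE 0.212, adjusted p = 0.00111) that missed the threshold without DMSO replicate 2 (0.0549). Pld4 passed as lower (adjusted p = 0.0471) at 3.71 and 3.95 in POG and 4.23 and 4.53 in DMSO, near background in POG, and passed in none of the fits without an array (0.103 to 0.285). Of the Gpatch genes set apart above, Gpatch2l was higher (log2 fold change 0.60, adjusted p = 0.0361), Gpatch4 was lower (-0.68, adjusted p = 0.0144), and the other 3 missed the threshold.

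Other genes of the same pathways, outside the rule, were read from lists. Of 17 measured genes of glycerolipid and phospholipid synthesis, 5 (29.4%) were higher and 1 (5.88%) was lower, beside 20.4% and 17.2% of all genes, with a median log2 fold change of 0.08. Without single arrays 1 to 3 were higher and 0 or 1 lower. The choline transporter genes Slc44a2 and Slc44a1 were higher by 1.79 (adjusted p = 1.5e-05) and 0.83 (adjusted p = 0.00457) on the log2 scale. Serinc1, which belongs to a family linked to serine incorporation into lipids, was higher by 1.12 (adjusted p = 9.6e-04), and the acyltransferase Lpgat1 by 0.83 (adjusted p = 0.00402). Selenoi, the ethanolamine phosphotransferase that follows Pcyt2, was lower (-0.82, adjusted p = 0.00553), and Gpam, the mitochondrial GPAT, had a log2 fold change of -0.01. Slc44a2 passed whichever array was left out, and Serinc3, of the Serinc1 family (0.60, adjusted p = 0.0261), in none of these fits (0.0888 to 0.177). Serinc1, Selenoi and Slc44a1 each passed in 1 of these fits, without DMSO replicate 2 for Serinc1 and without DMSO replicate 1 for the others (otherwise up to 0.0676, 0.0964 and 0.0791), and Lpgat1 lost the call without POG replicate 2 or DMSO replicate 2 (up to 0.0697).

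Of 12 measured genes of lipolysis and the droplet, 4 were higher, 0 were lower at either the adjusted threshold or an unadjusted p under 0.05 from limma, and the median was 0.19; 2 or 3 were higher without single arrays. On all 4 arrays 33.3% of the 12 were higher and 0% lower at the adjusted threshold, beside 20.4% and 17.2% of all genes. Hsd17b11, a droplet-associated dehydrogenase, read 12.53 and 12.53 on the POG arrays and 10.61 and 11.05 on the DMSO arrays (log2 fold change 1.70, adjusted p = 2.0e-05). The droplet GTPase Rab18 was higher by 0.99 (adjusted p = 0.00116), the droplet hydrolase Ldah by 0.74 (adjusted p = 0.0159) and the lysophosphatidylserine lipase Abhd12 by 0.65 (adjusted p = 0.0215). Abhd5, the coactivator of Pnpla2, had a log2 fold change of 0.32 and did not pass. Of 14 measured other lipases and lysophospholipid hydrolases, 5 were higher and 0 lower by the same readings, with a median of 0.20, and without single arrays 2 or 3 were higher. On all 4 arrays 35.7% of the 14 were higher and 0% lower at the adjusted threshold, beside the same shares of all genes. The higher genes include Plbd2, a lysosomal phospholipase B-like protein (log2 fold change 1.18, adjusted p = 4.4e-04), and Plaat3 (1.06, adjusted p = 0.00155) and Pla1a (1.01, adjusted p = 0.00221), both with phospholipase A activity. Enpp2, autotaxin, which makes lysophosphatidate, passed as higher (adjusted p = 1.4e-04) at 4.99 and 6.16 on the POG arrays and 3.66 and 3.65 on the DMSO arrays, near background in DMSO. Hsd17b11, Rab18, Plbd2 and Enpp2 passed whichever array was left out, whereas Abhd12 (0.0697 to 0.193) and Plaat1, of the Plaat3 family and also among the 5 (log2 fold change 0.61, adjusted p = 0.0237), passed in none of these fits (0.0836 to 0.17 for Plaat1). Ldah and Pla1a passed only without POG replicate 1 and Plaat3 only without DMSO replicate 2, with adjusted p otherwise up to 0.19, 0.072 and 0.0782.

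Genes of fatty acid handling moved both ways, with 3 of 11 higher and 2 lower (median 0.12), and 1 to 3 higher and 0 or 1 lower without single arrays. On all 4 arrays 27.3% of the 11 were higher and 18.2% lower, close to the 20.4% and 17.2% of all genes. The acyl-CoA synthetase gene Acsl3 rose by 1.44 on the log2 scale (adjusted p = 2.6e-04), the transporter Slc27a1 by 1.26 (adjusted p = 1.7e-04) and the acyl-CoA binding protein Dbi by 0.90 (adjusted p = 0.00262). The fatty acid binding protein Fabp3 (-0.87, adjusted p = 0.00314) and the transporter Slc27a4 (-0.64, adjusted p = 0.0251) were lower in POG. Of 14 measured effectors of diacylglycerol and IP3, 4 (28.6%) were higher and 2 (14.3%) lower, beside 20.4% and 17.2% of all genes (median 0.05). Without single arrays 1 or 2 were higher and 0 to 2 lower. Among them the kinase Prkd1 (0.90, adjusted p = 0.00245) and the IP3 receptor Itpr1 (0.88, adjusted p = 0.00385) were higher, as was Chn2, a relative of Chn1 (0.77, adjusted p = 0.0105), and Chn1, a diacylglycerol-binding Rac GTPase activator, was lower (-1.14, adjusted p = 0.00153). The IP3 receptor Itpr2 was higher (0.60, adjusted p = 0.0444) and the protein kinase C gene Prkch, near background in POG, passed as lower (adjusted p = 0.0408). Itpr2 passed only without DMSO replicate 2 (otherwise up to 0.376) and Prkch only without DMSO replicate 1 (otherwise up to 0.396). Of 6 receptors of lysophosphatidate and sphingosine 1-phosphate, S1pr3 was higher (0.71, adjusted p = 0.00961) and Lpar1 was lower (-0.94, adjusted p = 0.00245), while 4 missed the threshold. That was 16.7% in each direction, beside 20.4% higher and 17.2% lower of all genes. S1pr3 and Slc27a4 passed in none of the fits without an array (adjusted p from 0.0625 to 0.0836 and from 0.0803 to 0.214). Fabp3, Chn1, Prkd1 and Lpar1 each lost the call without POG replicate 1 or DMSO replicate 2 (up to 0.0637, 0.0833, 0.0586 and 0.0692), Dbi without POG replicate 2 or DMSO replicate 2 (up to 0.0642), and Acsl3 without POG replicate 2 (0.0581). Itpr1 passed only with POG replicate 2 left out (otherwise up to 0.0826) and Chn2 only with POG replicate 1 left out (otherwise up to 0.125).

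Of 17 measured regulators of lipid genes, 6 (35.3%) were higher and 1 (5.88%) was lower, beside 20.4% and 17.2% of all genes, with a median of 0.47. Without single arrays 3 or 4 were higher and 0 were lower. Srebf1, which encodes SREBP-1, read 10.49 and 10.33 on the POG arrays and 7.27 and 7.50 on the DMSO arrays, a log2 fold change of 3.02 (adjusted p = 4.4e-08). Insig1, a feedback brake on SREBP processing and itself a known SREBP target, was higher by 2.60 (adjusted p = 1.3e-07), and Srebf2 by 1.00 (adjusted p = 0.00144). Cebpd, a factor of early adipocyte differentiation, was higher by 1.15 (adjusted p = 6.9e-04), and Ppargc1a, a coactivator of mitochondrial and fatty acid oxidation genes, by 1.15 (adjusted p = 0.00139). Pparg, the master factor of adipocytes, was lower, at 5.87 and 6.06 in POG and 6.53 and 6.79 in DMSO (-0.69, adjusted p = 0.0145). Ppard, a nuclear receptor of fatty acids, was higher by 0.75 (adjusted p = 0.00876). Srebf1 and Insig1 passed whichever array was left out, and Pparg (0.0665 to 0.149) and Ppard (0.0535 to 0.113) in none of these fits. Srebf2 lost the call without POG replicate 1 or DMSO replicate 1 (up to 0.0606), Cebpd without POG replicate 2 (0.0602), and Ppargc1a passed only without POG replicate 1 (otherwise up to 0.0772).

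**Figure D4:**
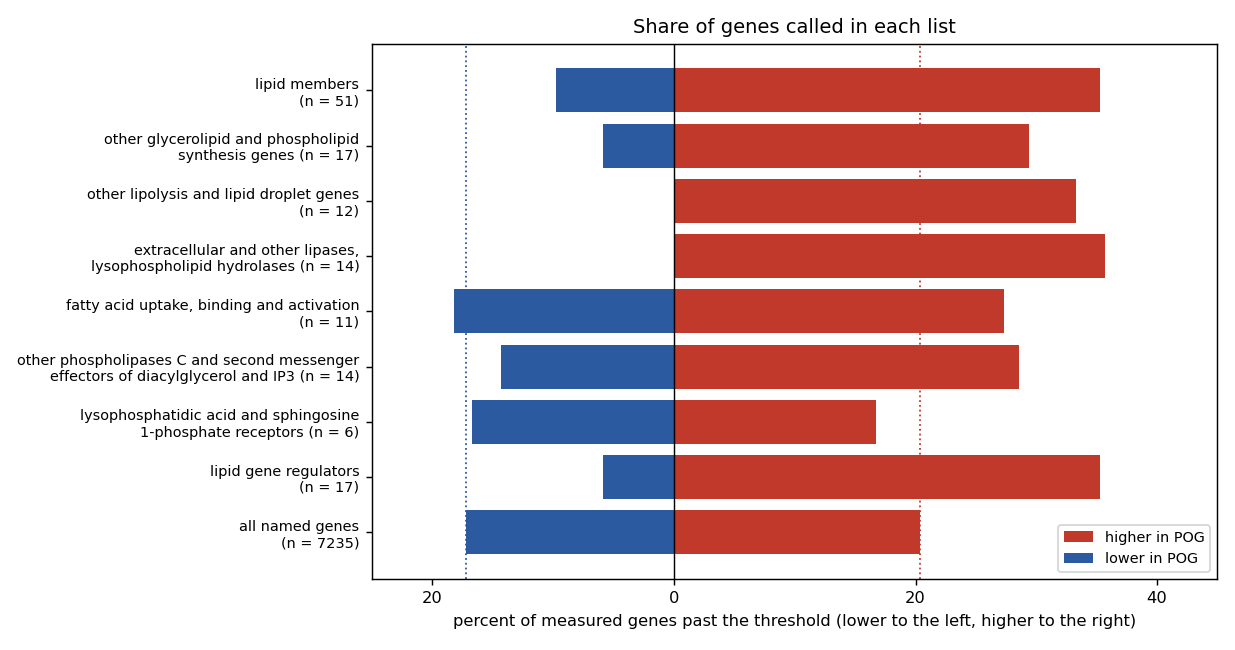
Percent of measured genes past the threshold (x axis; higher in POG to the right, lower to the left) in the lipid genes, in 7 lists of related genes and in all named genes (y axis); dotted lines repeat the shares of all named genes. The 51 lipid genes show 35.3% higher and 9.8% lower, beside 20.4% and 17.2% of all genes.

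Markers of other cell types were read beside these results. Of 6 measured adipocyte markers, Adipoq and Lpl (2, of which Lpl is also 1 of the 51 genes) were higher, Pparg (1) was lower, and Fabp4, Lep and Cidea (3) missed the threshold. That was 33.3% higher and 16.7% lower, beside 20.4% and 17.2% of all genes. The summed log2 signals of the 6 were 39.1 and 39.5 on the POG arrays and 35.9 and 36.4 on the DMSO arrays. The difference was 3.16, to which Lpl itself contributed 1.92. Without Lpl, a sum added after the values were seen, the other 5 gave 30.6 and 31.1 on the POG arrays and 29.5 and 29.8 on the DMSO arrays, a difference of 1.25, with Adipoq at 1.10 and Pparg at -0.69. Adipoq, the adipocyte hormone adiponectin, read 5.83 and 6.14 in POG and 4.81 and 4.95 in DMSO, and passed whichever array was left out. Plin1, Cidec and Lipe were not analysed here. The 4 macrophage and leukocyte markers summed to 22.6 and 22.5 in POG and 22.3 and 22.8 in DMSO, with 0 of 4 past the threshold and 0 at an unadjusted p under 0.05 from limma, and Fcer1g was near background throughout. The endothelial receptor Kdr overlapped at 5.50 and 5.94 in POG and 5.73 and 5.82 in DMSO. The part of adipocyte-like cells in the lipid results was not tested.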

How the data were processed

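RNA of 4 cultures of rat TSPCs was measured on Affymetrix Rat Transcriptome Arrays, 2 with POG and 2 with DMSO. Per the methods, the authors normalized the signals by RMA with default settings and global scaling and deposited log2 values for each array. Its software version was not given in the sources used here. Another deposited table was identical in 10141 of 10141 features and served as an alternative.

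Gene names came from the platform annotation, which gave 1 symbol to 7240 of 10141 features and several to 0, and 2901 are unnamed here. For 4 of 7235 genes with more than 1 feature the brightest was used. No signal filter was applied. A group mean under 4.12, the 5th percentile of all features, was called near background, and no size of change is given there. The number of arrays limits the precision.

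The groups were compared by lmFit and eBayes of limma 3.58.1 (R 4.3.3) on all 4 arrays with no covariate. The spread used for each gene was drawn in part from all genes, with 12.2 prior degrees of freedom. Benjamini-Hochberg adjustment ran over 7235 genes, and 0.05 was the threshold. The members and lists were chosen with earlier results of these data known. In each role up to 4 genes with the largest change past the threshold were named with their values on all arrays, as were all neutral lipid lipases, droplet coat genes and Pnpla2; in each list up to 4 were named. Genes outside this rule, such as Gpam, Selenoi, Serinc3, Abhd5, Plaat1, Slc27a4, Itpr2, Prkch, Srebf2, Ppard and Pparg, were named after their values were seen. Alternatives were the second table, quantile normalization, median subtraction, exclusion of the 25% of genes with the lowest signal, averaging of a gene's features, all features in the fit, fits without single arrays, blocking on the replicate number, eBayes with trend, limma's treat at 1.5-fold, and the methods' test with and without adjustment. Figures were drawn with matplotlib 3.10.9.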

Additional observations from a re-analysis of the deposited data

How the results depend on the processing

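Of the 51 genes, 18 were higher and 5 lower in POG in the fit reported, and no gene reversed its direction with a call under any alternative. The second table and the mean of a gene's features gave 18 higher and 5 lower, quantile normalization 20 and 5, median subtraction 20 and 4, all features in the fit 17 and 4, a variance prior with trend 16 and 6, and removal of the dimmest 25% of genes 16 and 4 of 37. Plin2 was lost with all features in the fit (adjusted p = 0.0573) and with the trend (0.0579), as were Pld4 with all features (0.055) and after median subtraction (0.0634) and Lpcat2 with the trend (0.0566). Dgat2 passed after quantile normalization (0.0454), median subtraction (0.0363) and removal of dim genes (0.0413), Plpp3 after both normalizations (0.0452 and 0.0377) and Pla2g2a with the trend (0.021). A fold change limit of 1.5 left 4 higher and 1 lower, beside 333 and 417 of all 7235 genes. The methods' t-test with its fold change gave 13 higher and 3 lower, beside 786 and 784 of all genes. With Benjamini-Hochberg adjustment it gave 0 and 0, both of the 51 and of all genes. In limma at an unadjusted p under 0.05, 21 and 7 of the 51 passed. Leaving out single arrays gave 7 to 10 higher and 1 to 2 lower. With the replicate block 20 were higher and 6 lower, Dgat2, Plpp3 and Pla2g2a being added. Same-numbered arrays deviated together at r = 0.161, but the labels name no shared rat or batch, so the arrays share only a number. Across normalizations and fits the median log2 fold change of the 51 ran from 0.22 to 0.275. The causes of these differences were not tested. With 2 arrays a group, and 5 of the 51 genes near background, a gene that missed the threshold is not shown to be unchanged.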
